A study of Rattus norvegicus with 16 samples.

Results

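The MHC class II genes of the rat right ventricle are described here through 8 genes: the invariant chain Cd74, the classical chains RT1-Ba, RT1-Bb, RT1-Da and RT1-Db1, the peptide editor chains RT1-DMa and RT1-DMb, and the transactivator Ciita. They were taken by symbol from the 17245 genes that the arrays measure with a probe set paired with exactly 1 symbol, and each of the 8 had 1 such probe set, shared with no other symbol. The tissue was right ventricular wall of Wistar males weighing 160 to 180 g, which had received a sham operation or a constricting band on the pulmonary artery. By their labels 7 samples were CON (controls), 5 were RVF+ and 4 were RVF, each hybridised to its own Affymetrix array. The labels spell out neither RVF+ nor RVF, assign no operation and no time after it to any sample, and leave unsaid whether a group's samples were different animals. All p-values are therefore relative to the spread among these samples, part or all of which may be technical. Each sample carries its group and its title number, so that CON has numbers 1 to 7, RVF+ has 8 to 12, and RVF has 13 to 16.

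MHC class II molecules are pairs of an alpha and a beta chain that show peptides from the endosomes to CD4 T cells on the surface of dendritic cells, macrophages and B cells. New pairs travel with the invariant chain, which fills the groove until proteases trim it and the DM molecule exchanges the remnant for a peptide. Transcription depends on CIITA, which binds no DNA itself and is recruited by RFX, CREB and NF-Y proteins sitting on the X and Y boxes of the class II promoters, and which interferon gamma can induce in many cell types.

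The promoter sequences of the classical chains and of RT1-DMa are shown because the intensities of these genes varied together between arrays, as described below, and that of RT1-DOb because it encodes a chain of the class II family that did not pass in any comparison. Cd74 varied with them too, and RT1-DOa and RT1-Ha did not pass either, but their sequences are not shown. Whether promoter letters go with shared variation was not tested. Each stretch comes from the RefSeq promoter table of build GRCr8 and is written 5′ to 3′ on the strand of the gene, with capitals marking the Y box letters TGATTGG and, where present, the X box letters, which are AGCAAC, any base and GATG.
RT1-Ba: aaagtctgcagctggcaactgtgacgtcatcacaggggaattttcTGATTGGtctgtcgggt
RT1-Bb: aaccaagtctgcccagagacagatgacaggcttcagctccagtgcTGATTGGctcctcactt
RT1-Da: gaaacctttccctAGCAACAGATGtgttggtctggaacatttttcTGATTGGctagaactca
RT1-Db1: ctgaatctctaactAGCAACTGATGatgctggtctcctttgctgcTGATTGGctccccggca
RT1-DMa: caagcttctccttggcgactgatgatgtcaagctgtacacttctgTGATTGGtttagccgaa
RT1-DOb: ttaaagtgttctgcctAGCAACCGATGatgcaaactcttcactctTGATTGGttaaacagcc

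All 6 stretches lie on chromosome 20 upstream of an annotated transcription start. RT1-Da lies at chr20:4515319-4515380 and RT1-Ba at chr20:4576967-4577028, both on the plus strand. On the minus strand, RT1-Db1 lies at chr20:4560228-4560289, RT1-Bb at chr20:4604165-4604226, RT1-DOb at chr20:4627592-4627653 and RT1-DMa at chr20:4712385-4712446. The table held a window for 6 of the 8 genes, all but RT1-DMb and Ciita, each running from 250 bases before to 50 bases after the start.

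Both strands of all 33469 windows of 300 bases were searched. The letters TGATTGG stood in 2364 windows (7.06%), and their shorter core ATTGG, which lies within them, in 12549 (37.5%). The X box letters stood in 16 windows (0.0478%). Only 5 windows (0.0149%) held both the X box letters and TGATTGG, those of RT1-Da, RT1-Db1, RT1-Db2, RT1-DOb and Glul, the last encoding glutamine synthetase. From the first X box letter to the first letter of TGATTGG the distance was 32 bases in RT1-Da, 31 in RT1-Db1 and 29 in RT1-DOb. In the windows of RT1-Ba, RT1-Bb and RT1-DMa only TGATTGG was matched, and it began at positions -45, -63 and -66 from the start. The Cd74 window held neither, with ATTGG on the reverse strand at position -189. Only exact matches were counted, so an X or Y box with other letters would be missed. These matches describe letters in a window, and they show no bound factor.

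Before any comparison, the arrays themselves call for a description. All 8 ventricular cardiomyocyte markers were bright in CON, from 9.95 (Myl2) to 12.80 (Myl3) on the log2 scale, and log2 intensities of all genes had a lower quartile of 3.75, a median of 5.57 and an upper quartile of 7.30. RVF+ 8 stood apart from the other RVF+ arrays. It had the lowest summed ventricular marker intensity of its group (21060, against a group range up to 32720) and the highest summed macrophage marker intensity (9063, with the lowest array of the group at 3302). It was also the highest RVF+ array in 8 of the 8 class II genes, and its effect is given beside the class II results. Counts of the pathway and cell type lists below that stand alone were the same without it. Among the controls CON 6 was lowest and CON 7 highest in 6 of the 8 genes.

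**Figure D1:**
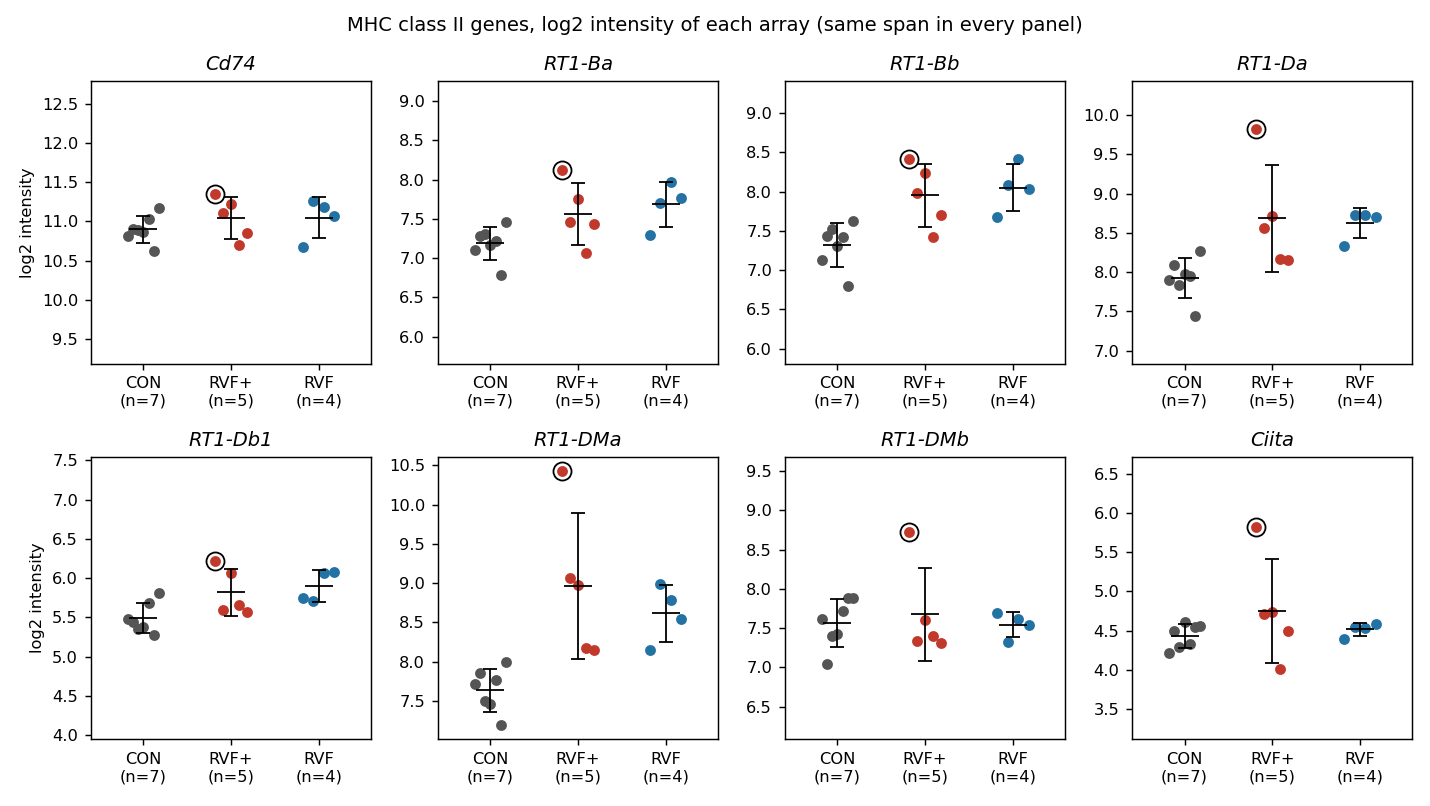
Log2 intensity (vertical axis) of the 8 class II genes on each array (points), by group with the mean and SD as bars; the ringed point is RVF+ 8, and all panels span the same number of log2 units. RT1-DMa lies above every CON array in all 5 RVF+ and all 4 RVF arrays, while Cd74 and RT1-DMb overlap between the groups.

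The comparison of RVF+ with CON asks how the class II genes of this condition differed from controls, and that of RVF with CON asks the same of the other condition. Both share the 7 CON arrays, so their values stand side by side and are not independent. RT1-DMa, RT1-Da and RT1-Bb rose in RVF+, and RT1-DMa, RT1-Bb and RT1-Db1 rose in RVF. The largest of these differences was that of RT1-DMa in RVF+, 2.50-fold. Cd74, RT1-DMb and Ciita passed in neither comparison. Thus 3 of the 8 genes were higher in RVF+ at an adjusted p below 0.05 (limma, Benjamini-Hochberg over all genes), where 14.1% of all genes were called higher, 13.6% lower and 27.7% in either direction. In RVF 3 of the 8 were higher as well, where 8.86% of all genes were called higher, 8.29% lower and 17.1% in either direction. This count in RVF depended on single arrays: it was 1 (RT1-Bb) when CON 1, CON 2, CON 3, CON 4, CON 6, RVF 15 or RVF 16 was left out, and 5 without CON 7, RVF+ 8 or RVF+ 11. Without RVF+ 8, 2315 of all genes were called higher in RVF, beside 1528 with it. None of the 8 was lower in either comparison. The median log2 difference over the 8 was 0.36 in RVF+ and 0.45 in RVF, beside medians over all genes of -0.01 and -0.01. In ventricular wall made of many cell types, fewer cells of a type and less RNA per cell cannot be told apart, nor more cells and more RNA per cell.

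RT1-DMa encodes the alpha chain of the DM peptide editor. Its log2 intensity in CON ran from 7.19 (CON 6) over a median of 7.71 to 7.99 (CON 7). In RVF+ 8 to 12 it was 10.43, 9.07, 8.98, 8.18 and 8.15, and RVF 13 to 16 had 8.15, 9.00, 8.78 and 8.54. Every RVF+ and every RVF array lay above every CON array, with RVF+ 8 far above the rest and RVF+ 11, RVF+ 12 and RVF 13 nearest to the controls. The log2 difference from CON was 1.32 ± 0.29 (SE, n = 5 and 7, 95% interval 0.70 to 1.94, limma adjusted p = 0.00269) in RVF+. Without RVF+ 8 it was 0.96 ± 0.20 (limma adjusted p = 0.00152). In RVF it was 0.98 ± 0.32 (n = 4 and 7, 95% interval 0.32 to 1.64, limma adjusted p = 0.0399), a 1.97-fold difference. That call was near the threshold, with an adjusted p of 0.0579 when all probe sets were tested together. RT1-DMa was the only gene of the 8 that separated RVF+ from CON on every array, a separation found above CON for 6.96% of all genes, so this count of 1 is not read as a result about the group of genes.

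RT1-DMb encodes the beta chain that pairs with it, and it did not pass. CON ran from 7.04 over a median of 7.62 to 7.89. RVF+ 8 to 12 had 8.72, 7.34, 7.60, 7.40 and 7.31, and RVF 13 to 16 had 7.70, 7.33, 7.62 and 7.54. Only RVF+ 8 lay above the controls, and all other arrays of RVF+ and RVF lay inside the CON range. The log2 difference was 0.11 ± 0.21 in RVF+ (95% interval -0.33 to 0.54, limma adjusted p = 0.754) and -0.16 without RVF+ 8 (limma adjusted p = 0.457). In RVF it was -0.02 ± 0.22 (95% interval -0.49 to 0.44, limma adjusted p = 0.958). The differences of the DM alpha and beta chains from CON were not tested against each other.

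RT1-Da encodes the alpha chain of the RT1-D molecule, the rat counterpart of HLA-DR. CON ran from 7.44 (CON 6) over 7.95 to 8.27 (CON 7). The values of RVF+ 8 to 12 were 9.82, 8.57, 8.71, 8.16 and 8.16, and RVF 13 to 16 had 8.33, 8.73, 8.72 and 8.70. All RVF arrays lay above all CON arrays, while RVF+ 11 and RVF+ 12 lay inside the CON range. The rise in RVF+ was 0.76 ± 0.22 (95% interval 0.30 to 1.23, limma adjusted p = 0.0153), or 1.70-fold. Without RVF+ 8 it was 0.48 ± 0.14 (limma adjusted p = 0.0175). In RVF the difference was 0.70 ± 0.24 (95% interval 0.20 to 1.20), and at an adjusted p of 0.0506 (limma) it did not pass. With RVF+ 8 left out of the fit, which shares 1 estimate of the spread over all 3 groups, the same difference had an adjusted p of 0.00121.

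RT1-Db1 encodes the beta chain of the same molecule. CON ran from 5.28 (CON 6) over 5.44 to 5.81 (CON 7). On the RVF+ arrays it was 6.22, 5.60, 6.07, 5.66 and 5.57, and RVF 13 to 16 had 5.75, 5.71, 6.07 and 6.08. In both groups 2 arrays lay above the controls and the others overlapped with them. The rise in RVF was 0.41 ± 0.14 (95% interval 0.13 to 0.70, limma adjusted p = 0.0455), or 1.33-fold. It did not pass with median centring (adjusted p = 0.0568) or quantile normalization (0.0604). In RVF+ the difference was 0.33 ± 0.13 (95% interval 0.07 to 0.60, limma adjusted p = 0.0600), and 0.23 without RVF+ 8 (limma adjusted p = 0.175).

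The RT1-B molecule, the counterpart of HLA-DQ, is made of the RT1-Ba and RT1-Bb chains. RT1-Bb had CON values from 6.80 (CON 6) over 7.42 to 7.63 (CON 7). On the RVF+ arrays, in order of number, it was 8.41, 7.98, 8.23, 7.43 and 7.70, and on RVF 13 to 16 it was 7.68, 8.08, 8.42 and 8.03. All RVF arrays and all RVF+ arrays but RVF+ 11 lay above every CON array. RT1-Bb rose by 0.63 ± 0.17 in RVF+ (95% interval 0.27 to 0.99, limma adjusted p = 0.0102), and by 0.52 without RVF+ 8 (limma adjusted p = 0.0302). In RVF it rose by 0.73 ± 0.18 (95% interval 0.35 to 1.12, limma adjusted p = 0.0101), a 1.66-fold difference. It was the only class II gene that passed in both comparisons under every alternative and with any array left out.

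The alpha chain RT1-Ba had CON values from 6.79 (CON 6) over 7.21 to 7.46 (CON 7). RVF+ 8 to 12 had 8.12, 7.46, 7.75, 7.06 and 7.43, and RVF 13 to 16 had 7.30, 7.70, 7.97 and 7.77. The arrays above the controls were 2 in RVF+ and 3 in RVF, so the groups overlapped. The log2 difference from CON was 0.38 ± 0.16 in RVF+ (95% interval 0.05 to 0.71, limma adjusted p = 0.0852) and 0.24 without RVF+ 8 (limma adjusted p = 0.252). In RVF it was 0.50 ± 0.17 (95% interval 0.14 to 0.85, limma adjusted p = 0.0508), and it passed without RVF+ 8 (adjusted p = 0.0145).

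In RVF, RT1-DMa, RT1-Bb and RT1-Da thus lay above every CON array in every RVF array, 3 of the 8 genes, where 9.83% of all genes did so. For these 3 genes the CON mean was the lowest of the 3 groups, and the RVF+ and RVF ranges overlapped with each other. The RVF+ range also overlapped with that of CON for RT1-Da and RT1-Bb.

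Cd74, the invariant chain, is the chaperone of class II assembly, and its intracellular part also takes part in signalling. CON ran from 10.62 (CON 6) over 10.88 to 11.17 (CON 7). RVF+ 8 to 12 had 11.35, 11.11, 11.23, 10.69 and 10.85, and RVF 13 to 16 had 10.68, 11.26, 11.18 and 11.07. The groups overlapped widely, with 2 arrays of each condition above the controls. The log2 difference was 0.15 ± 0.12 in RVF+ (95% interval -0.11 to 0.41, limma adjusted p = 0.416) and 0.07 without RVF+ 8 (limma adjusted p = 0.735). In RVF it was 0.15 ± 0.13 (95% interval -0.13 to 0.43, limma adjusted p = 0.497).

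Ciita encodes the class II transactivator. CON ran from 4.22 over 4.50 to 4.61, in the lower part of the range of all genes. In RVF+ 8 to 12 it was 5.82, 4.71, 4.73, 4.01 and 4.50, and in RVF 13 to 16 it was 4.40, 4.55, 4.54 and 4.58. All RVF arrays lay inside the CON range, while in RVF+ 3 arrays lay above it and RVF+ 11 below it. The difference was 0.32 ± 0.20 in RVF+ (95% interval -0.11 to 0.74, limma adjusted p = 0.265), and 0.05 without RVF+ 8 (limma adjusted p = 0.812). Without RVF+ 11 it was 0.50 (limma adjusted p = 0.0443), so either array decided its size. In RVF it was 0.08 ± 0.21 (95% interval -0.37 to 0.53, limma adjusted p = 0.850).

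**Figure D2:**
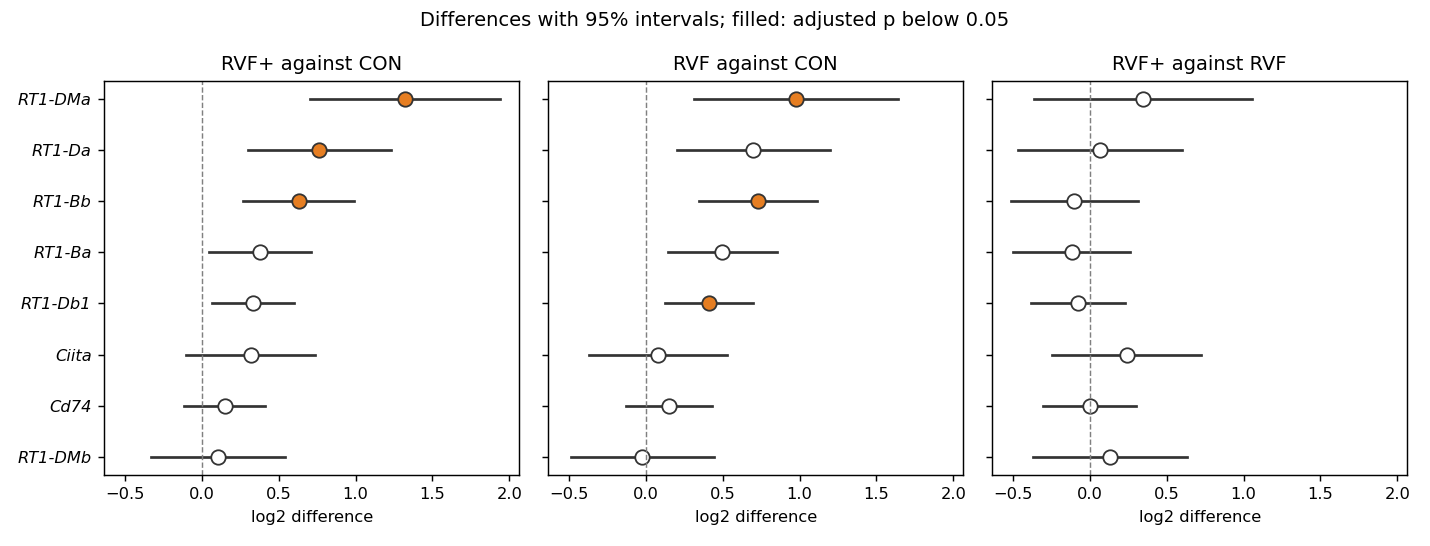
Log2 differences (horizontal axis) of the 8 class II genes with 95% intervals in the 3 comparisons, filled where the limma adjusted p was below 0.05. RT1-DMa and RT1-Bb are filled in both comparisons with CON, RT1-Da only in RVF+ and RT1-Db1 only in RVF (these differences between the conditions did not pass), and no gene is filled between RVF+ and RVF.

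The comparison of RVF+ with RVF asks whether the conditions differed from each other. None of the 8 genes differed between them by limma at an adjusted p below 0.05, nor at an unadjusted p below 0.05, and 0% of all genes were called (limma called 0 genes, with 1242 at an unadjusted p below 0.05). No member of the 8 lay with all RVF+ arrays above or below all RVF arrays, as 0.586% and 1.15% of all genes did. The differences ran from -0.12 for RT1-Ba (95% interval -0.50 to 0.26) to 0.34 for RT1-DMa (95% interval -0.37 to 1.05), with adjusted p-values from 0.884 to 1.00. For Cd74 the difference was -0.00 with an interval from -0.30 to 0.30, for Ciita it was 0.24 with an interval from -0.25 to 0.72. The intervals leave room for differences of these sizes in either direction. Without RVF+ 8 the difference of RT1-DMa was -0.02 and the median over the 8 genes went from 0.03 to -0.16.

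Of the other class II genes, RT1-DOa and RT1-DOb encode the chains of DO, which inhibits DM. RT1-DOb had a log2 difference of 0.25 ± 0.13 in RVF+ (limma adjusted p = 0.169) and 0.28 in RVF (0.178). RT1-DOa had -0.02 (0.917) and 0.03 (0.892). RT1-Ha, a gene of the RT1-H region, the counterpart of HLA-DP, that was added after its values were seen, had 0.11 (0.458) and 0.15 (0.351). None of these 3 genes passed. RT1-Db2, a second beta chain gene of the RT1-D region, is measured only by a probe set shared with Btnl2, a butyrophilin-like gene, and the signal cannot be given to either. That shared probe set ran from 3.69 to 4.39 in CON, had 3.93, 4.01, 4.08, 4.06 and 4.28 in RVF+ 8 to 12, and had 3.75, 3.68, 4.05 and 4.06 in RVF 13 to 16. It had a difference of -0.13 ± 0.11 in RVF+ (limma adjusted p = 0.469 over all probe sets) and of -0.32 ± 0.12 in RVF (0.105).

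No gene of the list that acts on class II promoters was called higher. Among 7 measured of 8 listed regulators, 0 were higher and 1 lower in RVF+ (list median -0.03), and 0 were higher and 2 lower in RVF (0.06). At an unadjusted p below 0.05 limma gave the same numbers, 1 and 2. Of all genes 14.1% were called higher and 13.6% lower in RVF+, and 8.86% higher and 8.29% lower in RVF. With so few genes, these counts are not read as a result about the list. Nfyc, a subunit of the Y box binding factor NF-Y, fell by 0.44 ± 0.07 in RVF+ (limma adjusted p = 0.000112) and by 0.39 ± 0.07 in RVF (0.000875), with every array of both groups below every CON array. Of all genes 7.63% lay below CON on every array in RVF+ and 9% in RVF. Rfxap, a subunit of the X box binding RFX complex, fell by 0.34 ± 0.09 in RVF (0.0138), while its difference of -0.15 in RVF+ did not pass (0.190). Rfx5, the DNA binding subunit of the same complex, had -0.03 (0.868) and 0.07 (0.673).

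Part of the genes for class II peptide loading and endosomal proteases rose. Of 12 measured of 13 listed, 7 rose and 0 fell in RVF+ (list median 0.44, and 7 without RVF+ 8), and 4 rose and 0 fell in RVF (median 0.28, and 8 without RVF+ 8). Beside these counts, 14.1% of all genes were called higher in RVF+ and 8.86% in RVF. Ctsh, Ctsd, Sppl2a and Marchf8 passed in neither, with differences from -0.06 (Ctsd in RVF) to 0.23 (Marchf8 in RVF+). Ctss, the cathepsin that trims the invariant chain in antigen-presenting cells, rose by 1.54 ± 0.21 in RVF+ (limma adjusted p = 4.71e-05), a 2.90-fold difference, and by 0.94 ± 0.23 in RVF (0.00780). Ctsl rose by 0.82 (1.21e-06) and 0.50 (0.000288). Ctsb, another cathepsin, rose by 0.41 (0.00247) and 0.31 (0.0357), and Cst3, the cathepsin inhibitor cystatin C, by 0.35 (0.000611) and 0.26 (0.0153). Each of these 4 genes lay above all CON arrays in 5 of 5 RVF+ arrays, and all but Cst3 did so in 4 of 4 RVF arrays. Of all genes 6.96% lay above CON on every array in RVF+ and 9.83% in RVF. These 4 genes were named because they passed, so their separation is not read as a result about the list. Lgmn, Cst7 and Marchf1, the last a ubiquitin ligase that removes class II from the cell surface, rose in RVF+ by 0.47 (0.0156), 0.78 (0.0340) and 0.92 (0.0181). They did not pass in RVF. Ifi30, the lysosomal thiol reductase, had 0.63 in RVF+ (0.0608).

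In the list of the interferon gamma pathway some genes rose and 1 gene fell. Of 16 measured of 17 listed, 5 rose and 1 fell in RVF+ (list median 0.19, and 4 and 1 without RVF+ 8), and 3 rose and 1 fell in RVF (0.18, and 4 and 1 without RVF+ 8). Beside these counts, 14.1% of all genes were called higher and 13.6% lower in RVF+. In RVF the shares were 8.86% and 8.29%. The 1 gene that fell was no larger a share than that of all genes called lower, and it is not read as a result about the list. The receptor chain Ifngr2 rose by 0.48 (limma adjusted p = 0.00205) and 0.45 (0.00831), and the kinase Jak2 by 0.64 (0.000877) and 0.44 (0.0307). Irf8, a transcription factor of myeloid cells, rose by 0.70 in RVF+ (0.00384). Cxcl11, an interferon-induced chemokine, fell by 1.11 in RVF+ (0.00486) and by 1.39 in RVF (0.00274). Gbp2, an interferon-induced GTPase, rose by 0.47 in RVF (0.0363) and had 0.28 in RVF+ (0.146). The induced genes Irf1, Cxcl9 and Cxcl10 had -0.12 (0.502), 0.20 (0.362) and 0.18 (0.691) in RVF+, and 0.03 (0.916), 0.17 (0.544) and 0.28 (0.594) in RVF. Ifng itself, dim on all arrays with a CON mean of 3.63, had -0.11 in RVF+ (0.510) and -0.06 in RVF (0.794).

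Other genes of antigen presentation were counted from lists in the same way, to be read beside the 14.1% (RVF+) and 8.86% (RVF) of all genes called higher. Of 15 measured class I presentation genes of 18 listed, 3 rose in each condition and 0 fell, with medians of 0.15 and 0.16. Without RVF+ 8 the median in RVF+ was 0.04 with 3 called, and 4 were called in RVF. RT1-S3, a class I heavy chain gene, rose by 0.39 (limma adjusted p = 0.0209) and 0.44 (0.0245), RT1-M3-1 by 0.49 (0.00297) and 0.35 (0.0469). B2m, the class I light chain, rose by 0.17 in RVF+ (0.0218), and RT1-CE5 by 0.68 in RVF (0.0366). The classical class I genes RT1-A1, RT1-A2 and RT1-A3 share a probe set, which had 0.15 (0.426) and 0.20 (0.381).

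Genes of the costimulation and T cell contact list changed in both directions in RVF+, and those that passed in RVF rose. Of 8 measured of 9 listed, 4 rose and 2 fell in RVF+ (median 0.36) and 3 rose and 0 fell in RVF (0.27). These counts and those of the 6 genes below are to be read beside the shares of all genes. Called higher and lower were 14.1% and 13.6% of all genes in RVF+, and 8.86% and 8.29% in RVF. Cd80 and Cd86, the ligands of CD28, rose by 1.35 (limma adjusted p = 0.00188) and 0.89 (0.00347) in RVF+, and by 0.94 (0.0431) and 0.83 (0.0145) in RVF. The 2 genes that fell in RVF+ were both ligands of the inhibitory receptor PD-1. Pdcd1lg2 fell by 0.76 (0.00349) and Cd274 by 0.43 (0.0175). In RVF they had -0.25 (0.411) and -0.20 (0.363). Of 6 listed genes of IL-10, TGF-beta and the Cd74 ligand MIF with its receptors, 4 rose in RVF+ and 2 in RVF (4 without RVF+ 8). Tgfb1 rose by 0.97 (3.46e-05) and 0.79 (0.000679), and Cxcr4, which pairs with Cd74 as a receptor for MIF, by 0.63 (0.000857) and 0.47 (0.0180). Cd44, the signalling partner of Cd74, rose by 0.73 in RVF+ (0.0111) and had 0.48 in RVF (0.143).

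**Figure D3:**
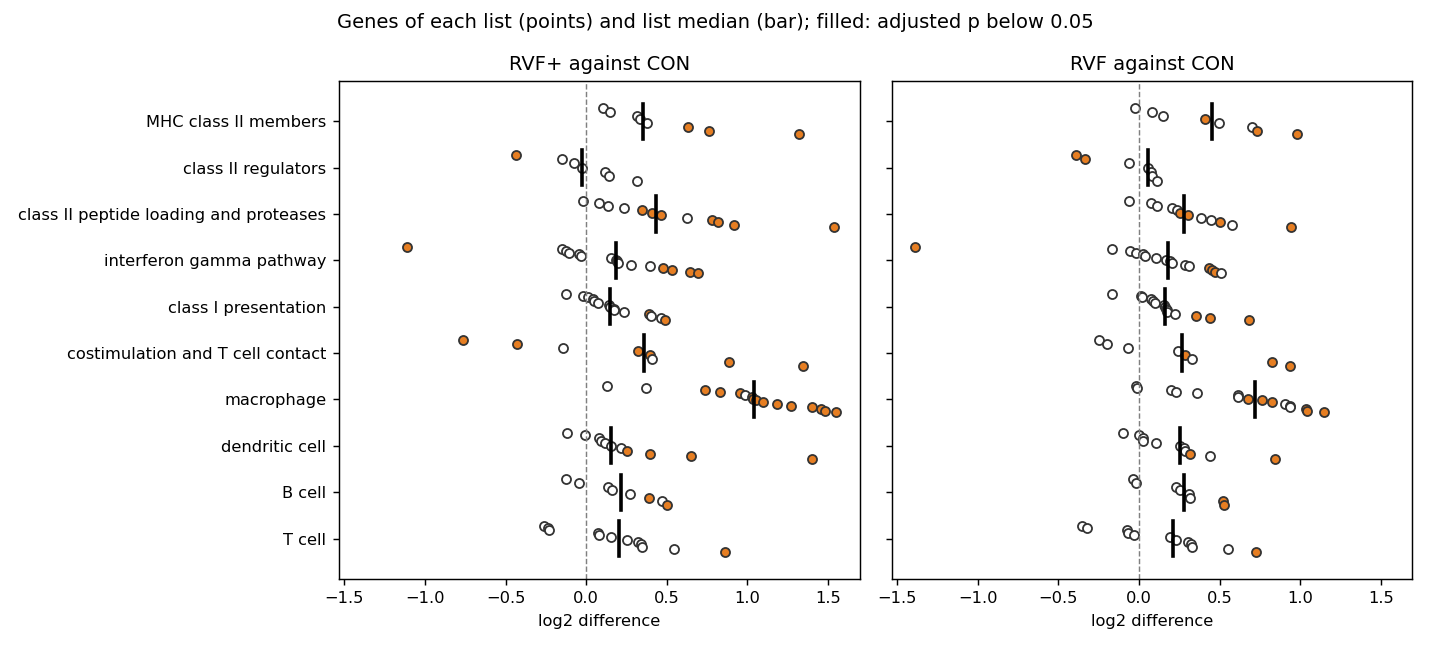
Log2 differences (horizontal axis) of the genes of each list (points, filled where the limma adjusted p was below 0.05) with the list median as a bar, for RVF+ and RVF against CON. The macrophage list has the highest median in both panels, 1.04 and 0.72, and the medians of the class II genes are 0.36 and 0.45.

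A larger share of the macrophage list than of the dendritic cell or B cell lists was called higher in both conditions. The part of cells that carry class II molecules in the class II values was not tested. Of 16 measured macrophage markers of 18 listed, 13 rose in RVF+ (13 without RVF+ 8) and 7 in RVF (11 without RVF+ 8), and 0 fell. Counts of the marker lists are to be read beside the shares of all genes. These were 14.1% higher and 13.6% lower in RVF+, and 8.86% higher and 8.29% lower in RVF. The summed intensity of the macrophage list ran from 1825 to 2565 over the controls. Neither the RVF+ range (3302 to 9063) nor the RVF range (2748 to 3900) overlapped with it. Single genes above CON on every array were 6.96% of all in RVF+ and 9.83% in RVF. Sums of linear intensities weigh the brightest genes of a list most. The complement genes C1qa, C1qb and C1qc rose by 1.27, 1.05 and 1.18 in RVF+ (limma adjusted p from 5.28e-06 to 8.95e-05) and by 1.04, 0.68 and 0.94 in RVF (9.36e-05 to 0.00901). Lyve1, a marker of resident macrophages, rose by 1.10 in RVF+ (0.000139) and had 0.36 in RVF (0.197). Among 7 common leukocyte genes 5 rose in RVF+ and 1 in RVF (6 without RVF+ 8), and their summed intensity had ranges of 1119 to 1461 (CON), 1628 to 6093 (RVF+) and 1535 to 2379 (RVF).

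Of 11 measured dendritic cell markers 4 rose in RVF+ (3 without RVF+ 8) and 2 in RVF (4 without RVF+ 8). Clec10a, a lectin also found on macrophages, rose by 1.40 (limma adjusted p = 0.000775) and 0.85 (0.0498), Ccr7 by 0.26 (0.0336) and 0.32 (0.0237), and in RVF+ Flt3 by 0.65 (0.0157) and Clec9a by 0.40 (0.0241). Itgax and Zbtb46 had 0.16 (0.691) and -0.01 (0.964) in RVF+. Summed intensities of the list ranged from 273.9 to 316.6 (CON), 319.2 to 655.7 (RVF+) and 328.7 to 390.4 (RVF). Clec10a had the highest mean of the list in RVF+ (6.86) and in RVF (6.30), beside 5.45 in CON, and so weighed most in these sums. Whether the sums separated without Clec10a was not tested.

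Of 8 B cell markers 2 rose in each condition, Cd79b by 0.39 (limma adjusted p = 0.0343) and 0.52 (0.0161) and Bank1 by 0.50 (0.0265) and 0.53 (0.0424). The defining marker Ms4a1 was dim, with a CON mean of 3.25, below the lower quartile of all genes. B cell sums spanned 252.9 to 314.4 (CON), 308.1 to 351.9 (RVF+) and 311.6 to 401.8 (RVF). Of 12 T cell markers 1 rose in each condition, no larger a share than that of all genes called higher (without RVF+ 8, 1 rose and 1 fell in RVF+, and 3 rose and 1 fell in RVF). It was Cd4, which rose by 0.86 (2.50e-05) and 0.73 (0.000360), and which rat macrophages also carry. T cell sums spanned 444.7 to 522.5 (CON), 598 to 990.5 (RVF+) and 588.8 to 778.6 (RVF). Cd4 was the brightest of these markers in CON (mean 8.07, with Cd28 next at 5.17) and so weighed most in the sums. Whether the sums separated without Cd4 was not tested. Cd3d, Ctla4 and Lag3 lay below the lower quartile of all genes. Of 7 measured endothelial markers, 1 rose in RVF+ (2 without RVF+ 8) and 0 in RVF, and of 8 ventricular cardiomyocyte markers 4 fell in RVF+ and 0 in RVF (3 without RVF+ 8), by limma at an adjusted p below 0.05. At an unadjusted p below 0.05, RVF had 0 of the endothelial and 2 of the ventricular markers. The atrial markers Myl7 and Sln varied widely in CON (8.26 ± 1.48 and 7.95 ± 1.24, SD, n = 7). In RVF Myl7 fell by 1.93 (limma adjusted p = 0.0450) and Sln fell by 1.86 (0.0399), and they had -1.52 (0.0661) and -1.49 (0.0554) in RVF+. Nppa, an atrial gene that the loaded ventricle also expresses, rose by 4.26 (1.14e-05) in RVF+ and by 4.57 (1.73e-05) in RVF. The part of the tissue's make-up in the class II values was not tested.

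The difference between a class II gene and the macrophage list was tested for Cd74, taken because it has the highest mean log2 intensity of the 8. The 8 genes and the list were chosen with earlier results of these data known, so the p-values of this test are no independent support. For each array the mean log2 intensity of the macrophage list was subtracted from that of Cd74. The result ran from 4.01 to 4.53 over the CON arrays. It ran from 2.73 to 3.79 over the RVF+ arrays and from 3.60 to 4.19 over the RVF arrays. It was lower in RVF+ than in CON by a difference of -0.89 (means 3.43 ± 0.41 and 4.31 ± 0.20, SD, n = 5 and 7). The two-sided exact permutation test gave p = 0.00126 (the smallest possible with 792 splits) and 0.00379 adjusted over 3 comparisons. Without RVF+ 8 the difference was -0.71 (exact permutation, adjusted p = 0.00909). RVF (3.82 ± 0.26, SD, n = 4) was also lower than CON, by a difference of -0.49 (exact permutation p = 0.0152 over 330 splits, adjusted 0.0227), and with the list's median in place of its mean this was -0.44 (adjusted p = 0.0545). RVF+ and RVF differed by -0.40 (exact permutation p = 0.119 over 126 splits). Cd74 therefore differed from CON by less than the macrophage markers did on the same arrays, which does not show that Cd74 itself stayed the same. In RVF the result depended on single arrays, with adjusted p-values (exact permutation) from 0.0125 to 0.0625 when an array was left out.

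**Figure D4:**
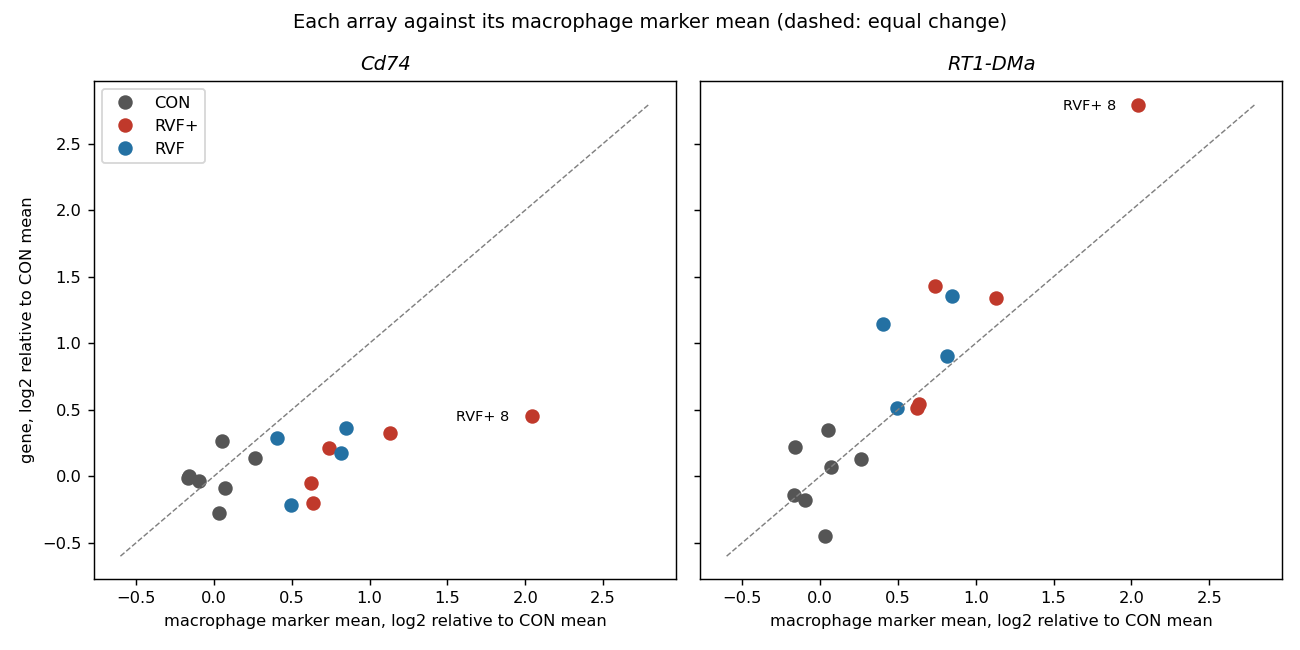
Log2 intensity of Cd74 and of RT1-DMa (vertical axes) against the mean log2 intensity of the macrophage marker list (horizontal axis), each relative to its CON mean, with 1 point per array and a dashed line of equal change. For Cd74 all RVF+ and RVF arrays lie below the dashed line, while for RT1-DMa they lie near or above it.

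Within the groups, 6 of the 8 class II genes varied together. Deviations of each array from its group mean were correlated between genes, which describes arrays that share tissue pieces, RNA quality and normalization. Among the 15 pairs of the 6 genes other than RT1-DMb and Ciita, a division made after the values were seen, Pearson r over 16 arrays ran from 0.68 to 0.96 with a median of 0.80 (Spearman rho 0.56 to 0.95, median 0.79). Without RVF+ 8 the median r of these pairs was 0.86 over 15 arrays (0.50 to 0.97), and within the 7 CON arrays it was 0.85 (0.62 to 0.98). Within CON the Spearman rho had a median of 0.75 and a lowest value of 0.46. CON 6 was lowest and CON 7 highest of the controls in each of these 6 genes, so r within CON leans on these arrays. RT1-Ba and RT1-Bb, the chains of the RT1-B molecule, were the closest pair within CON at an r of 0.98.

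RT1-DMb and Ciita followed the others less closely. Over 16 arrays the 6 pairs of RT1-DMb with these genes had a median r of 0.51, which was -0.12 without RVF+ 8 and -0.21 within CON. Ciita had medians of 0.66 over 16 arrays, 0.49 without RVF+ 8 and -0.03 within CON. For RT1-DMb the positive values over 16 arrays thus rested on RVF+ 8 in all of these pairs but that with RT1-Db1. That pair had an r of 0.64 over 16 arrays, 0.42 without RVF+ 8 and 0.36 within CON.

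**Figure D5:**
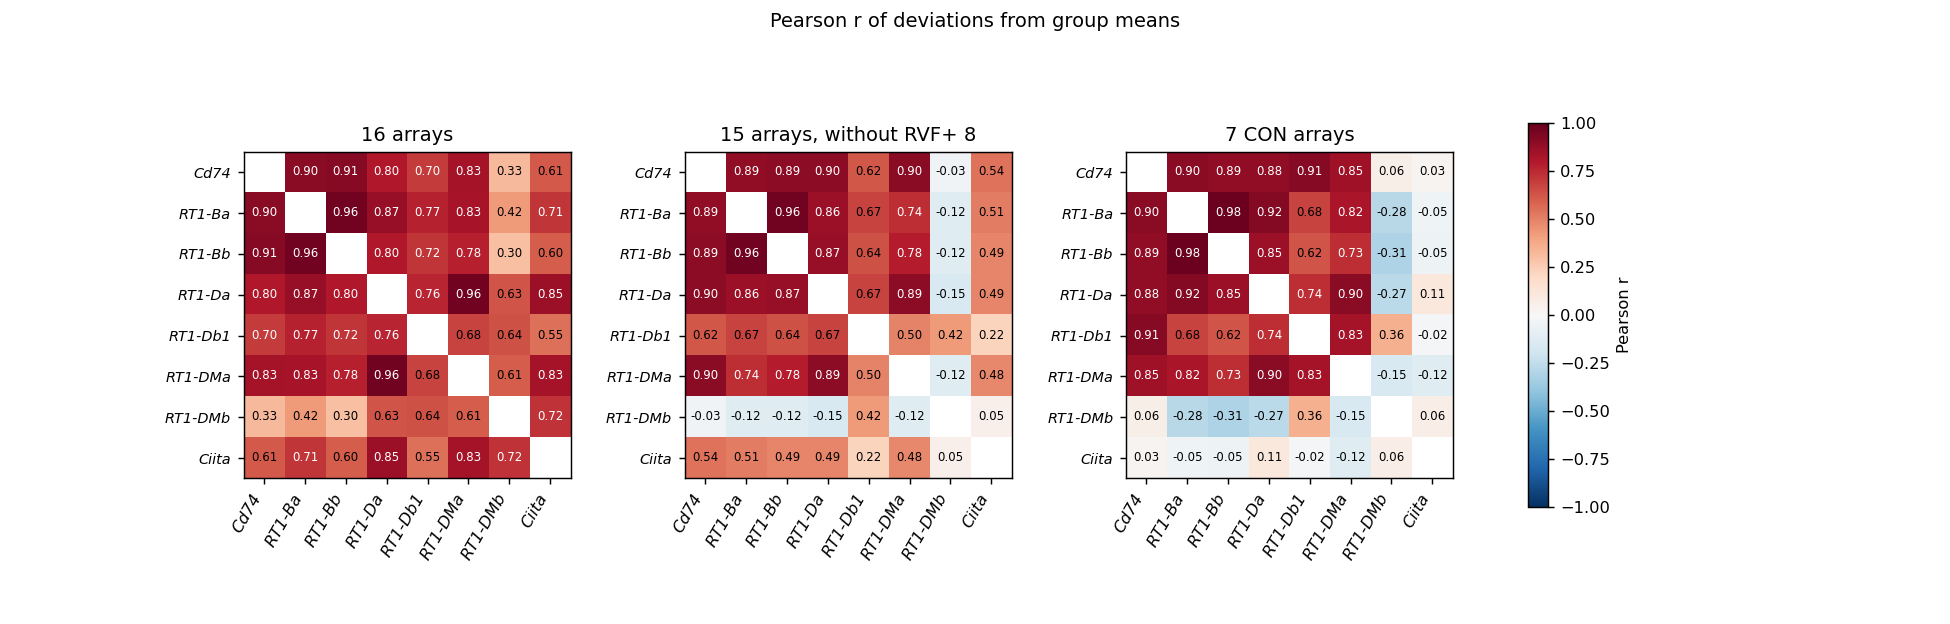
Pearson r between the 8 class II genes (both axes) of deviations from group means, over 16 arrays, over 15 arrays without RVF+ 8 and within the 7 CON arrays; the colour gives r from -1 to 1. The block of 6 genes keeps a median r of 0.80, 0.86 and 0.85, while the lines of RT1-DMb and Ciita fade in the panels without RVF+ 8.

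The genes whose deviations were most like the mean deviation of the 8 over 16 arrays were Gpr65 (Pearson r = 0.94, Spearman rho = 0.84), Tmem104 (0.94 and 0.90), Hmgb2 (0.94 and 0.84), Gpr132, Themis2, Tyrobp, Ncf4, Il10ra, Lrrc25 and Il17ra, the last with an r of 0.91 and a rho of 0.83. Gpr65 and Gpr132 encode proton-sensing family receptors, Tyrobp a signalling adaptor of myeloid cells and Ncf4 a subunit of the phagocyte oxidase. With the arrays farthest from the median of the 8 genes left out, RVF+ 8 and RVF+ 11, r was between 0.67 (Il17ra) and 0.85 (Gpr65). Without RVF+ 8 alone, 3 of these 10 genes (Gpr65, Tmem104 and Hmgb2) were among the 10 most like, and Parp16 led with an r of 0.91, followed by Col18a1 with 0.90. The other 7 dropped from the first 10 to ranks from 16 to 53, and over these 15 arrays the r of the 10 genes ran from 0.73 (Il17ra) to 0.85 (Tmem104).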

How the data were processed

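Gene expression in rat right ventricular wall was measured on 16 arrays, with labelled cDNA made from 500 ng of total RNA per the labels' protocols. The authors deposited linear intensity values per probe set (2.202 to 10294, array medians 27.1 to 29.3) that, per the submitters' processing notes, RMA produced. Which software and which array build were used is not given in the sources used here. RMA compresses differences of dim probe sets, and no detection calls were used. The deposited intensities were converted to log2. Of 29214 probe sets, 18644 had 1 symbol, 962 had several and 9608 were unlisted. Identifiers of 18460 matched RefSeq GRCr8. The highest-mean probe set per gene left 17245 genes.

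Group means over all 16 arrays were fitted with limma 3.58.1 (lmFit, eBayes) in R 4.3.3, with 13 residual and 4.45 prior degrees of freedom. P-values are two-sided, adjusted by Benjamini-Hochberg over all genes, with a threshold of 0.05. The code was tested on simulated data. Single values per array were compared by exact permutation tests. At most 0.00342% of values were identical between arrays. The number of arrays limits the precision.

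The 8 genes and all lists were chosen with earlier results of these data known. Named were the 8 genes, other class II genes, up to 4 passing genes of smallest p per list, and the 10 genes most like the 8. Further regulator, peptide loading, interferon and costimulation genes were also named. Alternatives were quantile normalization, median centring, a filter on dim genes, other probe set rules, fits on 2 groups, trend and robust moderation, array weights, other reference lists and leaving out each array.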

Additional observations from a re-analysis of the deposited data

Results flagged for a closer look

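In 27 sets of values of the 8 class II genes and the derived values, each within a group (7 CON, 5 RVF+ or 4 RVF arrays), the highest or lowest array was compared with its nearest neighbour by Dixon's ratio of the gap to the whole range, which flags about 1 in 20 groups by chance. The value of 2 arrays exceeded the critical ratio. RT1-Da was low in RVF 13, at a log2 intensity of 8.33, where the nearest RVF array had 8.70 (ratio 0.933 against a critical 0.829). RT1-DMb was high in RVF+ 8, at 8.72, where the nearest RVF+ array had 7.60 (0.791 against 0.710).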

How the results depend on the processing

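No paired analysis was possible because the numbers in the titles run from 1 to 16 and no number occurs in more than 1 group. Of the values per gene, 0 changed direction past the threshold. Under settings that kept all arrays, 177 values kept their side of the threshold, 8 crossed to pass and 4 were lost, and with each array left out 353, 14 and 17. In RVF+ against CON the 3 class II genes called were 3 to 6 with an array left out, 6 without RVF+ 11 (RT1-Ba, RT1-Db1 and Ciita in addition). In RVF against CON the 3 called were 5 with dim genes (mean below the median of all genes) left out, 5 in a fit of the 2 groups compared, 5 with array weights and 1 with all probe sets tested (RT1-Bb). They were 1 to 5 with an array left out: 1 without CON 1, CON 2, CON 3, CON 4, CON 6, RVF 15 or RVF 16, each time RT1-Bb, and 5 without CON 7, RVF+ 8 or RVF+ 11. RT1-DMa in RVF lost its call when an array among CON 1 to 6 or RVF 14 to 16 was left out (highest adjusted p = 0.125, limma). In RVF+ against RVF 0 were called under every setting run. Over all genes, RVF against CON had 2957 calls, 4466 in the fit of 2 groups, 4688 with array weights and 4247 without RVF+ 8. Cd74 relative to the macrophage list in RVF was -0.44 with the list's median (exact permutation, adjusted p = 0.0545), and -0.61 to -0.42 with an array left out (adjusted p from 0.0125 to 0.0625, at or above 0.05 without CON 2, CON 3, CON 4, CON 7, RVF 13, RVF 14 or RVF 16). In RVF+ it was -0.98 to -0.71 (adjusted p from 0.00379 to 0.00909). The counts of lists, the co-variation and the most like genes without RVF+ 8 were added after seeing the data, and 3 of the 10 most like genes were shared. The cause of these changes was not tested. Signal over background was not measured here, and Ciita, RT1-DOa, RT1-DOb and RT1-Ha lie below the median intensity of all genes (5.57).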
